A study of Mus musculus with 4 samples.

Results

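Liver gene expression with and without adrenal glands was compared early in the dark phase, at zeitgeber time (ZT) 14, where ZT counts hours from lights on. The comparison holds 2 of the 4 Affymetrix MG_U74Av2 arrays of a study of circadian mechanisms in the liver, chosen by their titles: the ADX array and the sham-operated array taken at ZT14. All livers came from male C57BL/6 mice. ADX mice had undergone bilateral adrenalectomy, which removes the source of corticosterone and also of aldosterone and adrenal adrenaline, and drank 0.9% NaCl. Sham-operated mice kept their adrenals and had standard chow and water. The same operations at ZT2, early in the light phase, were on the other pair of arrays, which shares no array with the ZT14 pair and is used here only as a second reading. The labels used here give neither the age of the mice, nor the time since the operation, nor how many mice stand behind an array.

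Glucocorticoids are released from the adrenal cortex with a daily rhythm that peaks in nocturnal rodents around the onset of darkness, so ZT14 lies close to that peak in mice with adrenals. In hepatocytes the hormone binds the glucocorticoid receptor, which is held by heat shock protein 90 and its co-chaperones and then enters the nucleus and acts on genes of glucose output, amino acid breakdown, lipid handling and acute phase proteins. Fkbp5, Zbtb16 and Lpin1 are well known receptor targets in many tissues, and the first of these encodes a co-chaperone that lowers the receptor's affinity for hormone.

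The values are hybridisation signals, scaled to a common trimmed mean and set to a floor of 3.91 units. A gene stands by its probe set of highest mean signal over the 4 arrays. With 1 array a side no difference has a replicate check or a p-value, and differences are called by size: at least 2-fold, with a Present detection call on the brighter array. "Rose", "fell" and "called" below mean this rule and nothing more. Where the dimmer array had no Present call, the fold is given as a lower bound, the bright signal over the dim signal or the floor, whichever was higher. Present calls covered 44.9% of probe sets on the sham ZT14 array and 44.4% on the ADX ZT14 array, and the ratio of 3′ to 5′ signal for actin was 1.71 and 1.73. All 10 hepatocyte markers on the array were Present on both, with summed signals of 41154.7 in sham and 38489.0 in ADX. Since tissue was assayed whole, a smaller number of cells of one type and less RNA per cell cannot be told apart.

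Of 5996 probe sets Present on at least 1 of the ZT14 arrays, 147 (2.45%) were called higher in ADX and 97 (1.62%) lower. Most of these calls were dim: the dimmer array had no Present call in 78.9% of the higher and 68.0% of the lower ones. Of 1959 probe sets whose mean ZT14 signal reached 100, 20 (1.02%) were called, 8 (0.408%) higher and 12 (0.613%) lower, or 5 and 19 with the signals as deposited. Counted as genes, 157 of 4619 (3.4%) were called, 93 (2.01%) rose and 64 (1.39%) fell, and the median log2 difference of all 4619 was 0.03. The split leaned to higher calls (60.2% of 244, themselves 4.07% of the probe sets) under this scaling and under scaling to a common median (142 higher and 101 lower), but quantile normalization gave 118 higher and 120 lower and the signals as deposited gave 106 and 137. The spread of log2 differences, as a robust SD over probe sets Present on both arrays, was 0.31, against 0.25 between the operations at ZT2.

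**Figure D1:**
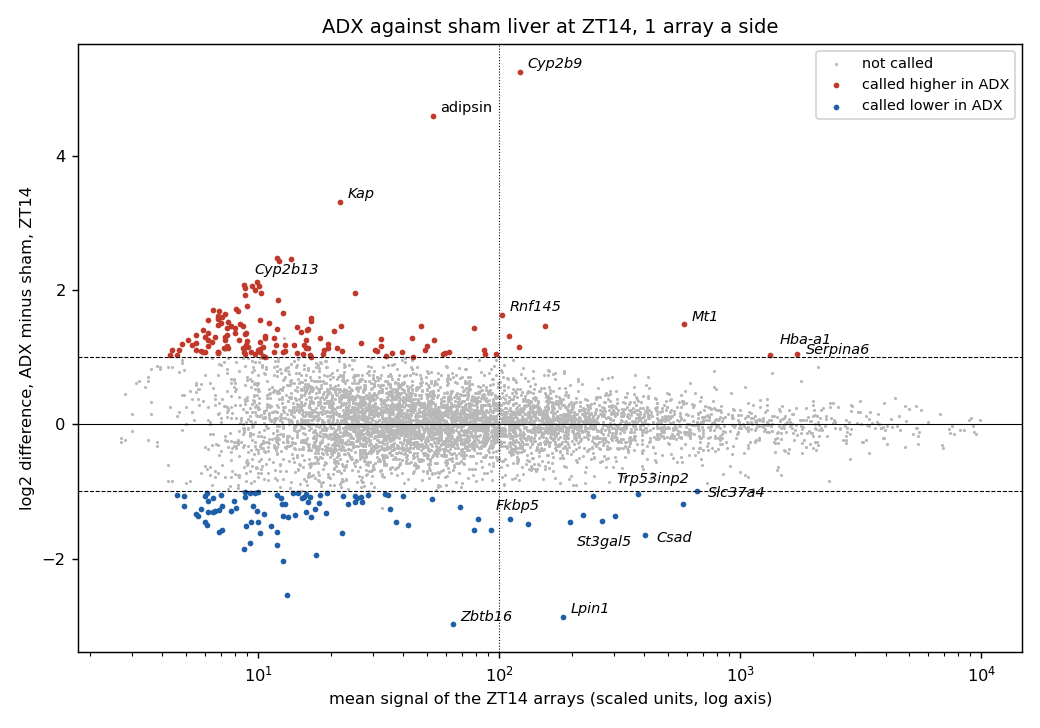
Each point is 1 of 5996 probe sets, with the mean signal of the ZT14 arrays on a log axis and the log2 difference of ADX minus sham; red and blue points were called, dashed lines mark 2-fold and the dotted line a mean signal of 100. Calls crowd at low signal, and to the right of the dotted line 8 lie above and 12 below the dashed lines.

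Known glucocorticoid targets were among the falls: Lpin1, with the largest fold of the lower calls at a mean signal of 100 or more, St3gal5, Fkbp5 and, at lower signal, Zbtb16. Lpin1, a phosphatidate phosphatase that makes diacylglycerol and also acts as a transcriptional coregulator, had signals of 59.9 and 324.0 on the sham arrays of ZT2 and ZT14 and of 28.5 and 44.3 on the ADX arrays, and was 7.31-fold lower in ADX at ZT14. Fkbp5 had 45.8, 160.8, 40.1 and 60.5 in the same order of arrays, a 2.66-fold fall. St3gal5, which adds the sialic acid that makes the ganglioside GM3, had 76.6, 391.0, 60.9 and 144.2, a 2.71-fold fall. In each of these genes the sham ZT14 array stood alone and the ADX ZT14 array lay near the range of the ZT2 arrays or, for St3gal5, between them and sham. Zbtb16, a zinc finger transcription factor, showed the same order with 22.7, 114.2, 14.2 and 14.5, a 7.87-fold fall at a mean signal under 100, and its other probe set was Absent on all arrays.

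Of 38 measured glucocorticoid targets, these 4 fell, Mt1 and Serpina6 rose and 32 were not called. Over all genes 1.39% fell and 2.01% rose. The target list was chosen with earlier results of these data known, so its count of falls is a description and no independent support. The list's median log2 difference was -0.06, beside 0.03 for all genes, and 22 of 38 signals were lower in ADX, or 57.9% against 46.8% of all genes. Some enzymes of the list were under 2-fold at ZT14: Pck1, which makes phosphoenolpyruvate for glucose synthesis, had a log2 difference of -0.22, Tat, the first enzyme of tyrosine breakdown, -0.07, and G6pc, which releases free glucose, 0.33. The ZT2 differences of the same genes were -1.24, -0.49 and -0.99. Igfbp1, a binding protein of insulin-like growth factors that insulin represses, had signals of 24.1 in sham and 34.6 in ADX at ZT14, and of 547.3 and 125.2 at ZT2. Errfi1, an inhibitor of the epidermal growth factor receptor, had -0.63 by its brighter probe set and fell by its other one, with signals of 804.5 in sham and 351.8 in ADX at ZT14. The serum- and glucocorticoid-induced kinase gene Sgk1 (0.32), the inhibitor of NF-kappa-B Nfkbia (-0.32, or 0.06 with its probe sets averaged), the phosphatase Dusp1 (-0.38), glutamine synthetase Glul (-0.53) and Klf9 (-0.30) were all under 2-fold. Read by their brightest probe sets, the uncalled targets with the largest differences were higher in ADX. These were Anxa1 (0.93, signals of 12.4 and 23.6, and 0.15 by another Present probe set) and Orm2 (0.83, signals of 52.6 and 93.2).

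**Figure D2:**
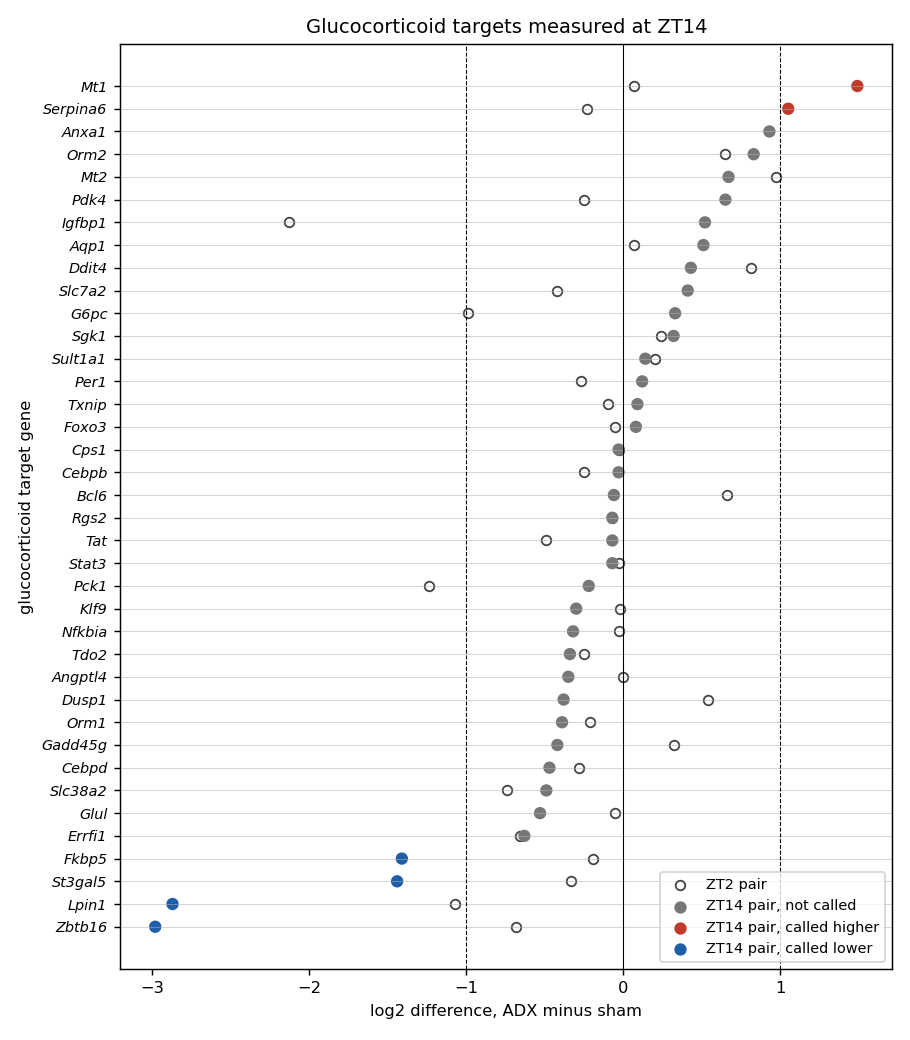
Rows are the 38 measured glucocorticoid targets, ordered by the log2 difference of ADX minus sham at ZT14 (filled points, coloured where called); open circles give the same genes at ZT2 and dashed lines mark 2-fold. Zbtb16, Lpin1, St3gal5 and Fkbp5 stand below the other members at ZT14, while Igfbp1 and Pck1 lie past 2-fold lower at ZT2 alone.

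The carriers and handlers of the hormone went apart. Serpina6, the corticosteroid-binding globulin that the liver secretes into plasma, had signals of 723.6 and 1118.7 on the sham arrays and 616.3 and 2323.9 on the ADX arrays, ZT2 before ZT14, and rose 2.08-fold. That call is near the threshold: the other probe set, with signals of 78.5 and 106.8 at ZT14, gave 0.45, the mean of both 0.75, and the deposited signals 0.93. The receptor gene Nr3c1 had a log2 difference of -0.57 at signals of 21.1 and 14.2. Hsd11b1, which regenerates active corticosterone inside the cell, had 0.07 (-0.06 with the deposited signals), and the receptor's chaperone Hsp90aa1 -0.02. Of 9 measured genes of this group, Serpina6 rose, Fkbp5 fell and 7 were not called, where 3.4% of all genes were called.

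Mt1, a metallothionein that binds zinc and copper and a textbook target of both metals and glucocorticoids, was the target with the largest rise. Its signals were 47.8, 306.8, 50.3 and 861.4 (sham at ZT2 and ZT14, then ADX at ZT2 and ZT14), a 2.81-fold rise at ZT14, with ZT2 signals that nearly coincided. Mt2 had 206.5 in sham and 327.7 in ADX at ZT14, under 2-fold. The promoter of Mt1 is shown because it is the one called gene of the target list with a glucocorticoid response element match. The letters GNACA and TGTNC separated by 3 bases, N standing for any base, were searched on both strands of the 250 bases before each gene start of the RefSeq promoter table (GRCm38.p6) and occurred in 127 of 32851 promoters (0.387%). Among the 38 measured targets 31 were in that table, and Mt1, Sgk1 and Txnip held a match. The stretch lies on the plus strand at chr8:94178945-94179057, 144 to 32 bases before the start, and capitals mark the match.
Mt1: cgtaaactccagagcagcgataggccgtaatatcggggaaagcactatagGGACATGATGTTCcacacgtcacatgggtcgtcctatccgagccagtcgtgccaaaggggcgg
The match is a description of letters. The 250-base windows of Lpin1, Fkbp5 and St3gal5 held none, which says only that these letters are not there.

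Csad, cysteine sulfinic acid decarboxylase of taurine synthesis, differed from the targets in its pattern over the arrays. Its signals were 628.7 on sham ZT2, 611.2 on sham ZT14 and 579.1 on ADX ZT2, and 195.1 on ADX ZT14 alone, a 3.13-fold fall. Of 16 measured genes of sulfur amino acid and taurine metabolism, Csad fell, Mat1a rose (signals of 6.5 and 14.5, too dim to describe a gene that is abundant in liver) and 14 were not called. Cdo1, the cysteine dioxygenase one step before Csad, had signals of 2344.6 and 1791.6 at ZT14, a log2 difference of -0.39, and Baat, which joins taurine to bile acids, -0.43. The list's median was -0.02, beside 0.03 for all genes, of which 3.4% were called.

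The other falls at a mean signal of 100 or more were between 2.00-fold and 2.79-fold. Tmem70, an assembly factor of the mitochondrial ATP synthase, had 212.3, 317.8, 124.1 and 125.0 (sham at ZT2 and ZT14, then ADX at ZT2 and ZT14), lower in ADX at both times and 2.54-fold lower at ZT14. Dio1, the deiodinase that activates thyroid hormone in liver, had 161.8, 332.7, 124.2 and 158.6, a 2.10-fold fall. Trp53inp2, a nuclear protein that takes part in autophagy, had 287.9, 506.3, 293.6 and 245.5, a 2.06-fold fall. As with Lpin1, the sham ZT14 signal of each of these genes was the highest of the 4. Slc37a4, the carrier that brings glucose 6-phosphate to G6pc, had 317.1, 879.3, 269.5 and 438.6, a fall of 2.00-fold that quantile normalization took to -0.96. AI506816, a transcript with no assigned function here, was 2.59-fold lower by 1 probe set and Absent at ZT14 by its other one. Among probe sets without a single gene symbol, the one that the array files describe as S-adenosylmethionine decarboxylase 3, of polyamine synthesis, had 60.2, 193.9, 68.3 and 69.4, a 2.79-fold fall, and one described as an endogenous retrovirus gag transcript was 2.73-fold lower.

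**Figure D3:**
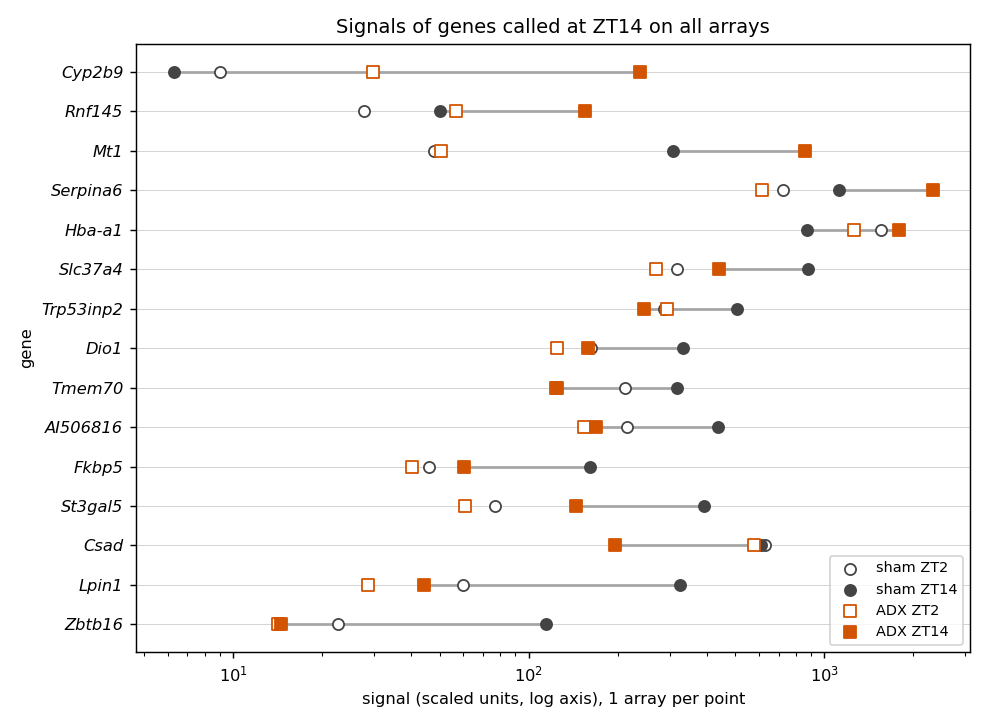
Signals on a log axis of the 14 genes of mean ZT14 signal 100 or more that were called, and of Zbtb16; circles are sham and squares ADX arrays, open at ZT2 and filled at ZT14, with a bar joining the ZT14 pair. In Lpin1, Zbtb16, Fkbp5 and St3gal5 the filled circle stands far to the right, and in Csad the filled square alone lies to the left.

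The highest rise was in Cyp2b9, a cytochrome P450 of the phenobarbital-responsive Cyp2b family whose expression in mouse liver is female-biased. Its signals were 9.0 and 6.3 on the sham arrays and 29.8 and 238.4 on the ADX arrays, ZT2 before ZT14, with Present calls on the ADX arrays alone, and the ZT14 rise was at least 38.1-fold. The related genes Cyp2b13 (0.9 in sham, 16.5 in ADX, at least 4.23-fold higher) and Cyp2b10 (42.3 and 77.5, a log2 difference of 0.87) lay in the same direction. Probe sets of this family may share sequence, so how far each reads its own gene is uncertain. The receptors that drive the family showed a log2 difference of 0.84 for Nr1i2 (PXR) and -0.05 for Nr1i3 (CAR).

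Of 9 measured female-biased liver genes, Cyp2b9, Cyp2b13, Hao2 and Lpl rose and none fell, where 2.01% of all genes rose and 1.39% fell. Hao2, a peroxisomal hydroxy acid oxidase, had 0.3 in sham and 12.7 in ADX, at least 3.25-fold higher. Lpl, lipoprotein lipase, had 69.4, 40.1, 95.4 and 83.9 over the arrays, a 2.09-fold rise that came to 0.94 with the deposited signals. Cyp17a1, a steroid hydroxylase, was the one member lower in ADX (-0.86), and it was not Present on both ZT14 arrays. Cyp2b9, Cyp2b13 and Hao2 entered the measured genes only through a Present call in ADX, so they had to be higher, and the count is no support for a shift of the list. On 16 list members that the array carries, 7 were Present on neither ZT14 array, among them Sult3a1, Sult2a2 and Cux2 at signals of 1.5 or less. With members Present on both arrays, 1 of 5 rose (Lpl), with a median of 0.56. The 10 measured male-biased genes had a median of -0.29 with 7 lower and none called, among them the steroid dehydrogenase Hsd3b5 (706.5 and 514.7 at ZT14) and the major urinary protein gene Mup5 (6030.3 and 4893.1). Of the growth hormone and insulin-like growth factor genes, which help set this sex difference, none of 16 was called, with Igf1 at -0.27 by its brighter probe set and 0.35 by its other one, Socs2 at 0.76 and Cish at -0.63.

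Kap, the kidney androgen-regulated protein gene, was Present on the ADX ZT14 array alone, at 39.8 against 4.0 in sham, at least 9.94-fold higher. Of 12 kidney markers on the array, 1 was Present on each ZT14 array (Kap in ADX, and in sham Slc34a1, a phosphate carrier that was at least 2.20-fold lower in ADX at 8.6 against 3.7), and their summed signals were 90.7 in sham and 85.0 in ADX. Umod, Aqp2, Slc12a3 and Miox, defining kidney transcripts, were Present on neither.

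Rnf145, a ubiquitin ligase of the endoplasmic reticulum that acts on sterol-sensing proteins, had 27.7, 50.1, 56.7 and 155.0 (sham at ZT2 and ZT14, then ADX at ZT2 and ZT14). It was higher in ADX at both times and rose 3.09-fold at ZT14. The probe set described as cellular retinol binding protein 1 had 69.1, 82.0, 94.5 and 226.0, a 2.76-fold rise. Cyp26a1, which breaks down retinoic acid, had 39.1, 25.3, 107.2 and 53.3, a rise of 2.10-fold at ZT14 after a larger one at ZT2 (log2 1.45). Both act in vitamin A handling, and the pair was set side by side after the values were seen.

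Hba-a1, alpha globin, had 1552.4, 873.8, 1260.9 and 1788.8 over the same arrays, a 2.05-fold rise at ZT14 against a difference of -0.30 at ZT2. The summed signal of 8 erythroid markers was 1278.4 in sham and 2255.0 in ADX at ZT14, and 1971.6 and 1664.3 at ZT2. Most of that sum was Hba-a1 itself, so it is no separate reading. Hbb-b2 had 0.74 at ZT14, while Alas2 (-0.06) and Klf1 (0.03), which mark red cell precursors, were near zero. The part of residual blood in the livers was not tested.

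Cholesterol synthesis genes were mostly lower in ADX at ZT14. Of 16 measured, 13 had the lower signal in ADX and only Hsd17b7 (20.4 in sham, 8.0 and not Present in ADX, at least 2.55-fold) was called. Over all genes 46.8% were lower and 3.4% were called. Hsd17b7 entered through a Present call in sham alone and so could be called only as lower. Among the 14 members Present on both arrays, 11 were lower, none was called and the median was -0.33. The median was -0.33, beside 0.03 for all genes, and the same genes had a median of 0.10 at ZT2, where 7 of 16 were lower. Closest to the threshold were Fdps, which makes farnesyl pyrophosphate, with 1020.4 in sham and 527.0 in ADX (-0.95), Idi1, the isopentenyl diphosphate isomerase, with 270.2 and 145.0 (-0.90), and Nsdhl, a sterol demethylation enzyme, with 162.7 and 102.4 (-0.67). On the other side were Ebp (0.24), Sc5d (0.35) and the lanosterol synthase Lss (0.43). The list kept 12 or 13 of 16 members lower under each scaling and floor, and 3 were called lower with the signals as deposited. Over the 9 members of mean signal 100 or more, 7 were lower and the median was -0.36. The sterol response element letters TCACNCCAC, on either strand, occurred in 1.05% of all promoters and, among the 13 of these genes in the table, in Hmgcs1 alone.

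Chaperone genes gave a similar picture at smaller size, and with the opposite direction at ZT2. None of 28 measured members was called, where 3.4% of all genes were. Lower in ADX at ZT14 were 22, or 78.6% against 46.8% of all genes, with a median of -0.15. At ZT2 the median was 0.15 with 7 lower. The members with the lowest differences act in the endoplasmic reticulum, apart from the cytosolic Hspa1a (-0.92, signals of 35.9 and 18.9). Dnajb9, a co-chaperone of BiP, had 113.8, 367.2, 200.8 and 201.6 (sham at ZT2 and ZT14, then ADX at ZT2 and ZT14), a ZT14 difference of -0.86 that was -0.34 by its other Present probe set. Creld2, a disulfide isomerase induced by unfolded proteins, had 136.1, 415.8, 250.7 and 242.8, so that both genes had like signals on the ADX arrays and a low and a high one on the sham arrays. Pdia6, another disulfide isomerase, had 397.8 in sham and 236.4 in ADX at ZT14 (-0.75), Herpud1, of protein degradation, 1241.5 and 759.4 (-0.71), and the secreted factor Manf 833.0 and 549.7 (-0.60). BiP itself, encoded by Hspa5, had 2096.1 and 1661.7 (-0.34), and Hsp90b1 1792.5 and 1533.1 (-0.23). The deposited signals, which move the median of all probe sets by -0.127, gave 24 of 28 lower, and quantile normalization 20.

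Promoters of this group are shown because several hold the endoplasmic reticulum stress response element. Its letters CCAAT and CCACG separated by 9 bases occurred on either strand in 37 of 32851 RefSeq promoter windows of 250 bases (0.113%), and in 6 of the 24 measured chaperone genes found in the table: Canx, Creld2, Dnajc3, Hsp90b1, Hspa5 and Pdia6. Dnajb9 and Herpud1, which had larger differences at ZT14 than most of these, are in the table and held none. The stretches are from GRCm38.p6, each read along its gene's strand with the match in capitals: Creld2 on the plus strand at chr15:88819485-88819573, Pdia6 on plus at chr12:17266456-17266544, Hspa5 on plus at chr2:34771990-34772078, and Hsp90b1 on minus at chr10:86705498-86705691, with 2 matches.
Creld2: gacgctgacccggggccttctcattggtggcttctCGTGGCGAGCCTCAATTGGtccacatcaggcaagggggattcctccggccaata
Pdia6: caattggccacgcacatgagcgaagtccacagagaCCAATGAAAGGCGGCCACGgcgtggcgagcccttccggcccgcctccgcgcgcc
Hspa5: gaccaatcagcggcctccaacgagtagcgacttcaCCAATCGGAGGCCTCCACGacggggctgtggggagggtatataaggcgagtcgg
Hsp90b1: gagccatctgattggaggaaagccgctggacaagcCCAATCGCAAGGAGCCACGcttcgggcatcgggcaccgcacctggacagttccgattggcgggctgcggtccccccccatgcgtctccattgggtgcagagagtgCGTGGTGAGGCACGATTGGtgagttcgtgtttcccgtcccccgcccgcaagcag
In Creld2 and in the second match of Hsp90b1 the letters are on the strand opposite to the gene. The ZT14 differences of the genes with a match ran from -0.78 in Creld2 to -0.10 in Dnajc3, whose other Present probe sets gave -0.39 and -0.83.

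Genes of the interferon response and of antigen presentation were mostly higher in ADX at ZT14 and mostly lower at ZT2. Of 35 measured, 4 rose and none fell, where 2.01% of all genes rose and 1.39% fell. Higher signals in ADX were found in 27, and 22.9% were lower, against 46.8% of all genes. The median was 0.24, against -0.24 at ZT2 with 26 lower. Cxcl9, an interferon gamma chemokine, had 46.1, 31.1, 32.6 and 69.4 (sham at ZT2 and ZT14, then ADX at ZT2 and ZT14), a 2.23-fold rise. Eif2ak2, the RNA-activated kinase PKR, had 9.6, 2.4, 3.5 and 11.7, at least 3.0-fold higher, Gbp2 was at least 2.13-fold higher, and the class II gene H2-Ab1 at least 2.01-fold, with 29.2 and 58.6 at ZT14. Its class II partners H2-Aa (66.8 and 118.1), H2-Eb1 (52.5 and 84.4) and the invariant chain gene Cd74 (157.3 and 234.8) had log2 differences of 0.82, 0.69 and 0.58. Eif2ak2, Gbp2 and H2-Ab1 had a Present call in ADX but not in sham at ZT14 and so could enter only as higher, and among the 30 members Present on both arrays 1 was called (Cxcl9), 22 were higher and the median was 0.20. Over the 11 members of mean signal 100 or more the median was 0.06 and none was called. With the deposited signals 22 of 35 were higher and 2 were called. Beside this list, the summed signal of 26 leukocyte markers was 234.6 in sham and 264.7 in ADX, with 2 Present on each array. Cd3e and Cd79a were Present on neither. Ms4a1, a B cell marker, was at least 2.32-fold higher, but it was Present at ZT14 in ADX alone and so could be called only as higher. The 1 leukocyte marker Present on both arrays had a log2 difference of -0.45. The 15 macrophage markers summed to 1528.9 and 1649.9. The part of these cell types in the result was not tested.

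**Figure D4:**
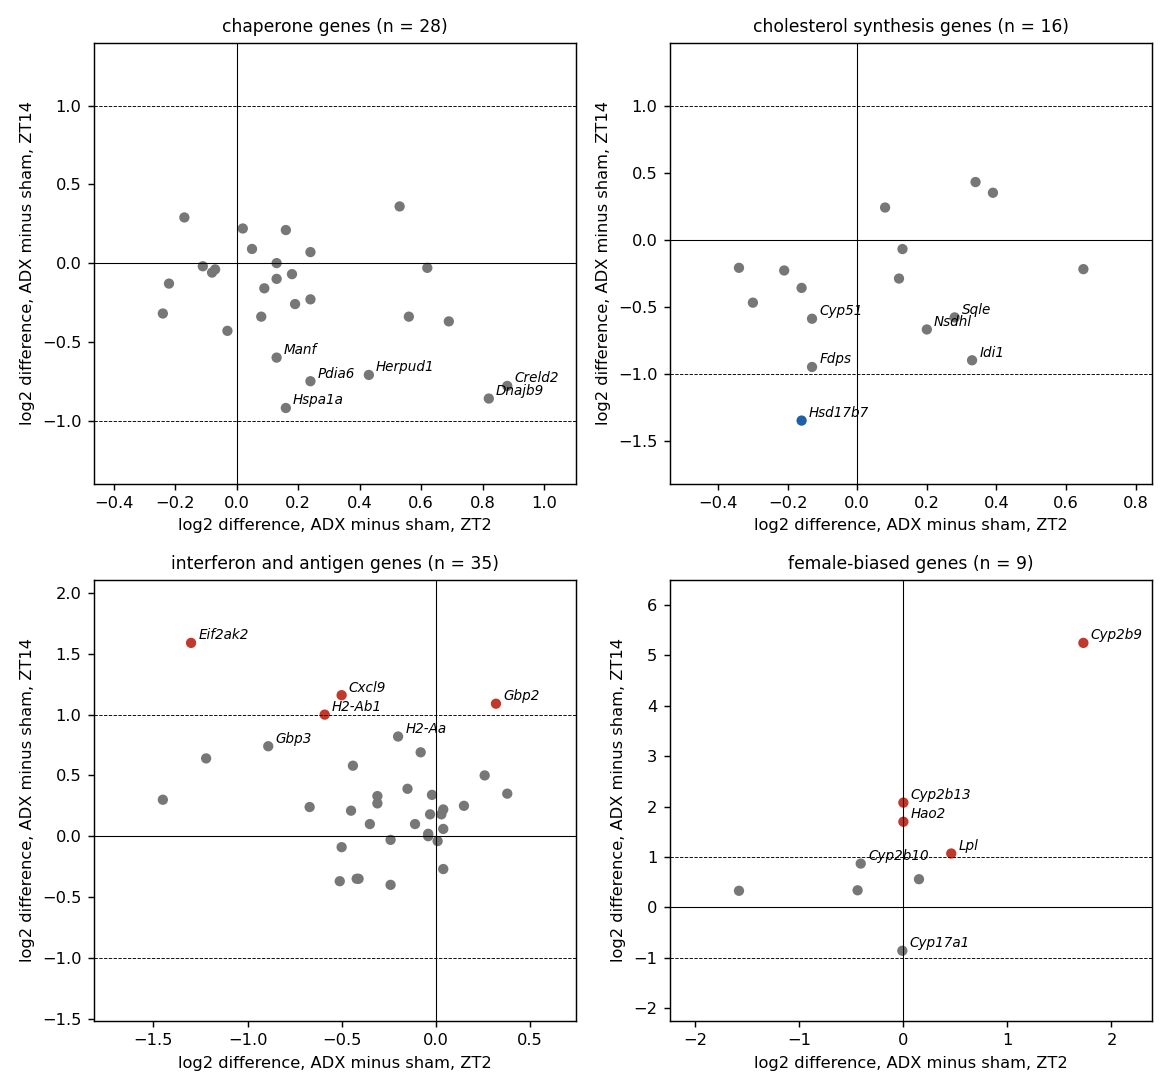
Members of 4 gene lists by their log2 difference of ADX minus sham at ZT2 (horizontal) and at ZT14 (vertical), 1 point per measured gene, coloured where called at ZT14; dashed lines mark 2-fold at ZT14. Creld2 and Dnajb9 lie at the lower right, and most interferon and antigen genes at the upper left.

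The core clock differed between the operations about as much as all genes did at this time. Of 18 measured clock and output genes, only Per3 was called, beside 3.4% of all genes. Per3 was at least 2.03-fold lower, with 6.4 and no Present call in ADX. Of the 18, 9 lay on either side of zero, with a median of 0.02. Their quartiles were -0.28 and 0.23, beside -0.19 and 0.25 for all genes. Dbp, an output transcription factor of the clock, had 98.2 in sham and 115.8 in ADX (0.24), Noct, nocturnin, 258.0 and 287.8 (0.16), Per2 47.8 and 42.5 (-0.17), and Bhlhe40 220.9 and 209.5 (-0.08). Arntl, which encodes BMAL1, had 5.5 and 9.3 at ZT14 (0.76) against 74.9 and 69.6 at ZT2, and the nuclear receptor Rora had -0.73.

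Fatty acid oxidation had no calls, and the glycolysis and lipogenesis list of 23 had 1 each way, where 3.4% of all genes were called. None of 29 oxidation genes was called, and 21 were higher with a median of 0.13, which became 0.00 with the deposited signals. Pdk4, which shuts pyruvate out of the mitochondrion, had 0.65 at signals near 10.6 and 16.5, Ehhadh 0.47 and the lipid droplet protein Plin2 0.46. In the glycolysis and lipogenesis list of 23, Lpin1 fell, Lpl rose and 21 were not called, with Thrsp, a lipogenic regulator, at -0.85 (2998.1 and 1662.1) and fatty acid synthase Fasn at -0.35. A probe set described as 6-phosphofructo-2-kinase/fructose-2,6-bisphosphatase, the switch between glycolysis and glucose synthesis, had 90.0, 117.2, 91.0 and 39.4, a 2.97-fold fall on the ADX ZT14 array. In amino acid breakdown and the urea cycle, 1 of 26 was called: Ass1 rose 2.39-fold at ZT14, with 40.6, 31.6, 14.7 and 75.4, and lay the other way at ZT2. Those signals are far below those of Cps1, of the same list's urea cycle (4524.6 in sham and 4444.9 in ADX at ZT14). How well this probe set reads Ass1 is therefore uncertain.

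The remaining lists had medians between -0.08 and 0.05. None of 28 acute phase, 17 bile acid, 59 oxidative phosphorylation and 38 proteasome genes was called. Among 59 genes of xenobiotic metabolism, Cyp2b9, Cyp2b13 and Cyp26a1 rose and Cyp1a1 fell, the last at signals of 9.8 and 4.1. The other calls in a list, apart from those given above, were Ccnd1 (2.07-fold), Gata6 and Rpl22 (2.15-fold) higher, and Myc, Fech, Avpr1a and Cftr lower. Avpr1a, a vasopressin receptor, had 14.7 in sham and 5.3 in ADX at ZT14, and 0.16 by its other probe set. Altogether 33 distinct list genes were called, and 9 of them had a mean signal of 100 or more. Over all genes 157 of 4619 (3.4%) were called, and 14 of 1591 (0.88%) at that brightness. The lists were chosen with earlier results of these data known and their distinct measured genes were not counted, so no share is compared. Among genes named by 1 symbol and read by their brightest probe set, the dimmer calls with the largest differences were, besides Kap, Cyp2b13 and Zbtb16, the higher Zfp574, St7, Igkv8-19 and Oxct1 and the lower Gdap10, Uap1, Snhg5, Atp6v0e2 and Psat1, of which Atp6v0e2 (138.0 in sham, 46.3 in ADX) had the brightest signal.

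**Figure D5:**
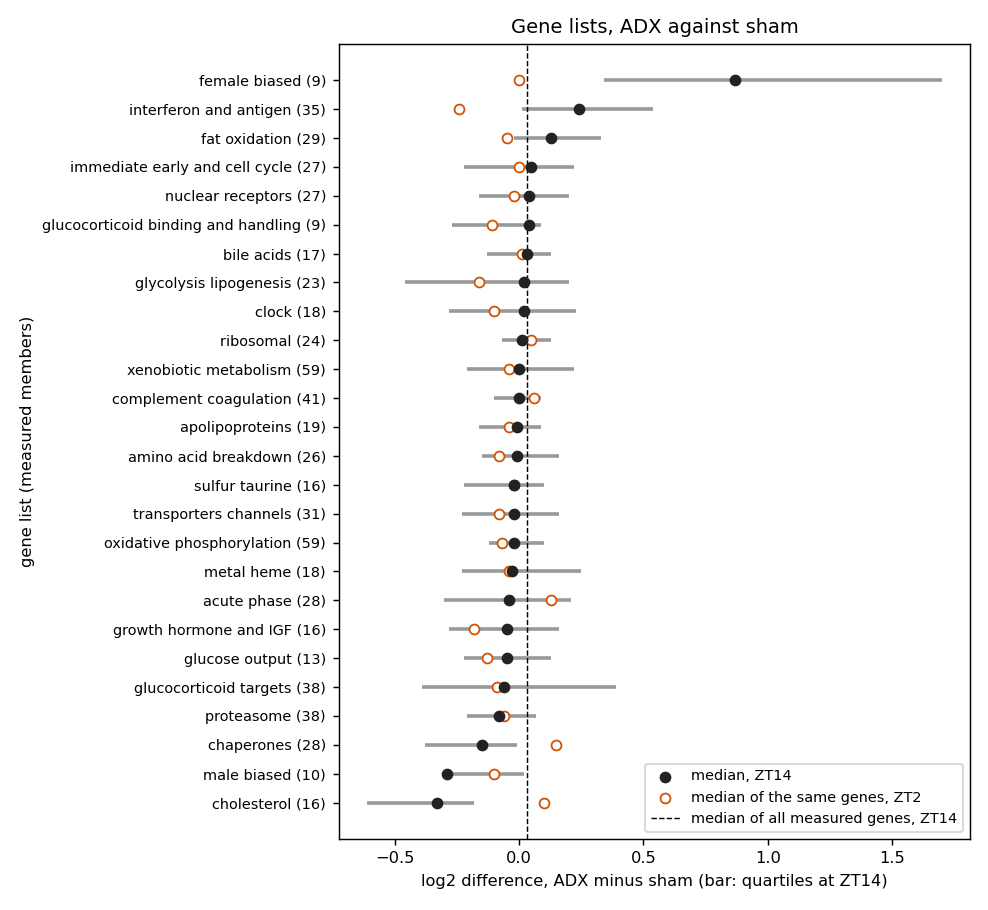
Median log2 difference of ADX minus sham in 26 gene lists at ZT14 (filled points, with bars for the quartiles) and of the same genes at ZT2 (open circles); numbers of measured genes are in parentheses and the dashed line marks the median of all measured genes. Cholesterol, chaperone and interferon lists change sides between the times. Other lists change sides with smaller gaps, among them fat oxidation (0.13 at ZT14 and -0.05 at ZT2) and acute phase (-0.04 and 0.13). The female-biased list, 3 of whose 9 members entered through the ADX array alone, lies to the right.

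The ZT2 pair gave a second reading of the calls. Of the 20 called probe sets whose mean signal reached 100, 15 had the same sign at ZT2, 10 of 12 lower and 5 of 8 higher ones, while of probe sets that were not called 57.6% and 54.5% did. Past 1.5-fold in the same direction were 3 of the 12 and 3 of the 8, beside 15 of 965 lower and 19 of 974 higher probe sets of that brightness that were not called. Over all 244 calls 126 (51.6%) had the same sign, which is near the 50.7% and 53.8% of probe sets that were not called. Whether the operation's effect differed between the times could not be tested.

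An additive fit of operation and time over all 4 arrays with limma (5872 probe sets Present on at least 2 arrays, 1 residual degree of freedom) called 0 probe sets for operation at a Benjamini-Hochberg adjusted p under 0.05, and 329 had an unadjusted p under 0.05. The smallest was the probe set described as adipsin, complement factor D, which fat tissue makes in quantity. Its signals were 4.4 and 4.2 on the sham arrays and 132.7 and 101.3 on the ADX arrays, ZT2 before ZT14, at least 24.1-fold higher at ZT14, with an operation effect of 4.75 (SE 0.17, limma adjusted p = 0.0603). Of 8 adipose markers 3 were Present on each ZT14 array, with Fabp4 at 10.8 in sham and 5.6 in ADX, Car3 at 3943.4 and 3833.8, and Lpl, which rose, at 40.1 and 83.9. Adipoq, Retn, Lep and Cidec, which define fat cells, were Present on neither. The summed signal of the 8 was 4029.6 in sham and 3984.3 in ADX. Nearly all of that sum was Car3, so it says little about the other markers. Next came Thbs2, the matrix protein thrombospondin 2 (5.3 in sham and 19.0 in ADX at ZT14), Igkv8-19, Peg3, Myc, Mmp12, Otulinl, Ryr3, Ppfibp2, Cyp26a1 and Wwp2, by probe sets that were past 2-fold in the same direction at both times, all at a limma adjusted p of 0.83. Of these Peg3 and Myc were lower in ADX and the others higher, and other probe sets of Peg3 and Otulinl gave differences of the opposite sign at ZT14 without passing the rule. A probe set described as an immunoglobulin kappa chain V region, with 98.6, 63.0, 225.9 and 157.0, was likewise higher in ADX at both times.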

How the data were processed

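Liver RNA of 4 groups (sham-operated and ADX, at ZT2 and ZT14) was hybridised to 1 array each. Per the file headers, the authors deposited for each of 12488 probe sets a signal intensity, a detection call (Present, Marginal or Absent) and the detection p-value behind it. Which software made them, and its version and target intensity, is not given in the sources used here.

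After 66 control probe sets were left out, each array's intensities were scaled to a common 2% trimmed mean (factors 0.925 to 1.067), set to a floor of 3.91 and taken to log2. Intensities carry no read depth, and the number of arrays limits the precision: with 1 array a group there is no test between the ZT14 arrays, and calls are by size. Probe sets were named from the platform annotation with symbols updated through RefSeq: 10833 had 1 symbol, 396 several and 1193 were not listed. Named genes were picked by rule, and not all of them are described in the text. They are the called ones at a mean ZT14 signal of 100 or more, up to 15 each way. Added were the 6 largest dimmer calls each way, the 8 largest differences between times and the 10 smallest p of the additive fit. Called members of the gene lists and measured members of the glucocorticoid target and handling lists complete the set. Of the differences between times, Cyp4a14 (0.33 at ZT14, -1.58 at ZT2) and Usp2 (-0.45 and 1.11, Absent at ZT2) are not described above. Nor are several uncalled targets, shown in the plot of all measured targets, and the uncalled handling genes Stip1, Hspa8, Fkbp4 and Ncoa1. Other list members are examples of a list's values. The arrays and lists were chosen with earlier results of these data known. The additive fit of operation and time used limma 3.58.1 in R 4.3.3. Other values came from Python 3.11.15 with NumPy 2.4.6. The scripts were tested on simulated data. Alternatives were other scalings, floors, detection filters, fold thresholds and probe set averaging.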

Additional observations from a re-analysis of the deposited data

Results flagged for a closer look

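In 4 named genes the operation's difference had opposite signs at the 2 times and was at least 1.5-fold at each, with a Present call on the brighter array, and with 1 array a group the difference between the times was not tested. Eif2ak2 had a log2 difference of 1.59 at ZT14 and -1.30 at ZT2, which lie 2.89 apart, at signals of 11.7 or less. H2-Ab1 had 1.0 and -0.59, a distance of 1.60. Creld2 had -0.78 and 0.88, so that the ZT14 value minus the ZT2 value was -1.66. Dnajb9 had -0.86 and 0.82, which gives -1.68, and its other Present probe set had -0.34 and 0.47. Other named genes with opposite signs missed one of these limits, among them Ass1 (1.26 and -1.47, with no Present call on the brighter ZT2 array), Igfbp1 (0.52 and -2.13) and Cxcl9 (1.16 and -0.50).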

How the results depend on the processing

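Calls by size depend on floor, filter and threshold. The 147 higher and 97 lower calls became 75 and 60 with a doubled floor of 7.82, 24 and 22 with a floor at the 95th percentile of Absent signals (23.9), 31 and 31 among probe sets Present on both arrays, 480 and 384 at 1.5-fold, and 26 and 14 at 3-fold. At a mean signal of 100 or more, 8 higher and 12 lower became 5 and 19 with the deposited signals, 51 and 76 at 1.5-fold, and 2 and 2 at 3-fold. Distinct list genes called numbered 33, then 17 with the floor of 23.9, 15 when Present on both arrays, and 9 at a mean signal of 100 or more, an alternative chosen after seeing the data. The limma fit called 1 probe set, not 0, with a variance trend, with no term for time and with quantile normalization. It called 0 with either raised floor, with no detection filter and with probe sets Present on all 4 arrays. In those settings the smallest limma adjusted p ran from 0.438 to 0.805, against 0.0603 in the main fit. None of 51 called named differences changed sign under the scalings, floors and averaging run, but of 43 that were not called 6 changed sign with the deposited signals and 3 with probe sets averaged, all but Nfkbia within 0.12 of zero in the main values. Of the 51 called, 49 stayed called with quantile normalization, 42 with the deposited signals and 23 with the floor of 23.9. Deposited signals moved the median log2 difference at ZT14 by -0.127. No paired analysis was possible because each group is 1 array and the labels give no replicate numbers. For the same reason no array could be left out: the additive fit would keep no residual degree of freedom.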
